A study of Mus musculus with 8 samples.

Results

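The 10 genes described here encode the core proteins that make and use microRNAs, and short hairpin RNAs use at least part of the same machinery. The genes are Drosha, Dgcr8, Xpo5, Dicer1, Tarbp2, Prkra, Ago1, Ago2, Ago3 and Ago4. They were chosen by name, for their place in the pathway that a short hairpin RNA enters, and no measured value enters that rule. Earlier results of these data were known when the choice was made. All 10 were among the 13130 genes of the deposited gene table, and they had 14 of the 24526 transcripts of the transcript table. The 4 knockdown libraries came from the orbital frontal cortex, a prefrontal region of the brain, of C57BL/6 mice aged 12 weeks that received the hairpins named sh-circHomer1/sh-Homer1b. These target a circular RNA and a linear isoform of Homer1, a postsynaptic scaffold gene. The 4 control libraries came from the same region, strain and age after the hairpin named sh-scramble. Both groups therefore carried a short hairpin RNA, and a hairpin-free group was not analysed here, so the comparison sets targeting hairpins against a scrambled one. The labels leave unsaid whether a knockdown library got one hairpin or both, and which vector, promoter or hairpin backbone was used. Separate animals for the libraries are not stated either, and p-values then measure only the spread between libraries, which may be technical.

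In the nucleus, the nuclease Drosha and its RNA-binding partner Dgcr8 form the Microprocessor, which cuts hairpin precursors out of primary microRNA transcripts. Exportin-5, the product of Xpo5, carries precursors and expressed short hairpins to the cytoplasm, where Dicer1 cuts off the loop with the partner proteins encoded by Tarbp2 and Prkra. The resulting duplex is loaded into an Argonaute protein, and of the 4 mammalian Argonautes Ago2 is the one with strong slicing activity. Neurons depend on this machinery for the microRNAs that act on synaptic messages.

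None of the 10 genes changed past the threshold, a Benjamini-Hochberg adjusted p under 0.05 in limma over all tested genes. The same held for all 13004 genes tested, of which 0 (0%) passed. At an unadjusted p under 0.05 there was 1 member, Ago3, which was lower in the knockdown group. Over all tested genes 1842 (14.2%) reached that p in either direction and 659 (5.07%) in the direction of Ago3, so 1 of 10 members is near the background. By mean log2 level 5 members were higher and 5 lower in the knockdown group. Their median log2 difference was -0.0034, against 0.015 over all tested genes, and the members spanned -0.17 to 0.13. The fold scale is log2(FPKM + 1), on which changes of low genes are understated. FPKM counts fragments per kilobase of exon relative to the size of the library. The gene value divides by the merged exon length of a gene's transcripts, so levels of different genes compare only roughly.

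**Figure D1:**
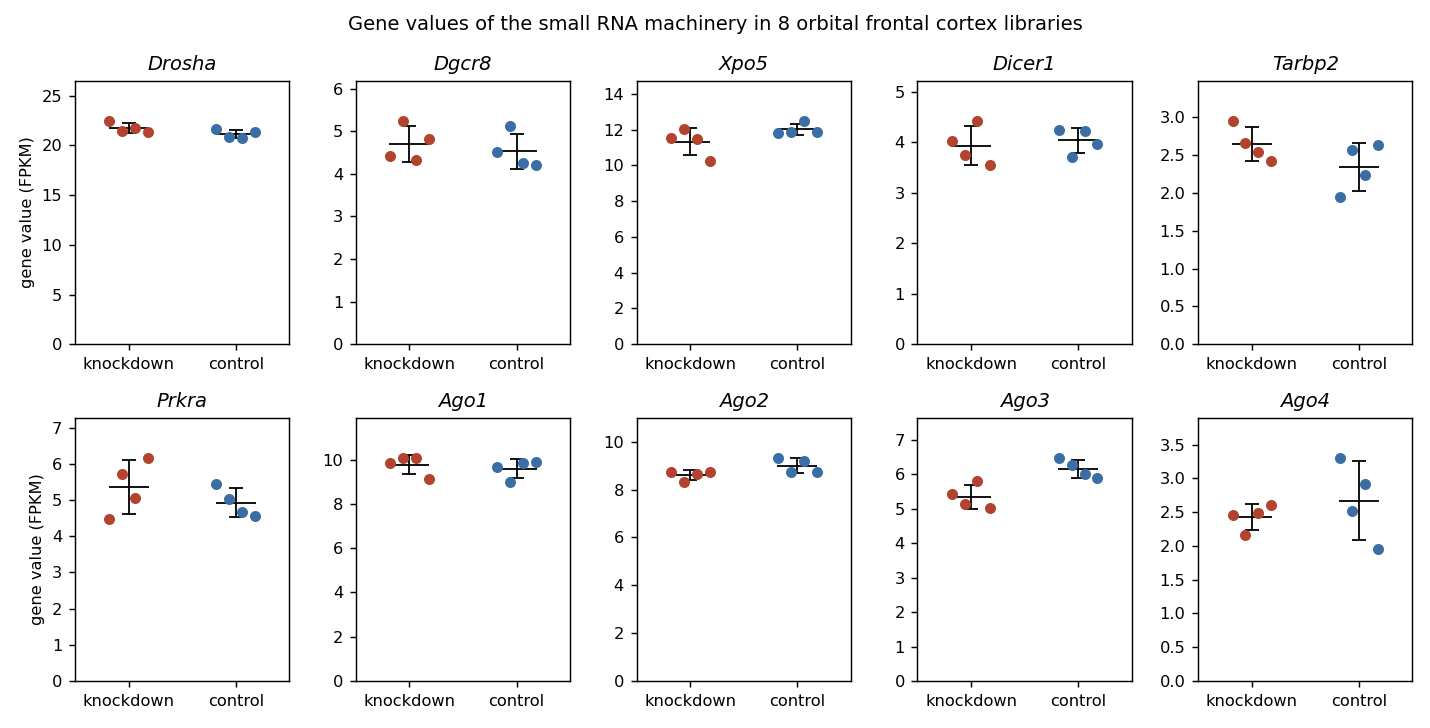
Gene value (FPKM, linear axis from 0) of each of the 10 genes, knockdown libraries left and control libraries right, 1 point per library, with mean and SD as bars (n = 4 each). The knockdown and control points interleave in 9 panels, and in the Ago3 panel the knockdown points (5.03 to 5.81) all lie below the control points (5.90 to 6.48).

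The libraries were alike in scale. Summed gene FPKM ran from 214316 to 224323, log2 values of any pair of libraries correlated at 0.970 to 0.990, and read depth is unknown. Cortical markers were present in every library, with Slc17a7, the vesicular glutamate transporter of cortical excitatory neurons, at 128 to 149 FPKM in knockdown libraries and 102 to 153 FPKM in control libraries. Markers of other tissue varied. The 12 striatal projection neuron markers summed to 199 to 507 FPKM in knockdown libraries and 250 to 836 FPKM in control libraries. The 3 listed olfactory bulb markers of 5 summed to 22.7 FPKM in knockdown library 4 and at most 1.64 FPKM in any control library, with Eomes listed at 0 in some libraries. The 8 oligodendrocyte markers summed to 608 to 1220 FPKM in knockdown libraries and 901 to 1129 FPKM in control libraries. The 6 astrocyte markers summed to 249 to 310 FPKM in knockdown libraries and 238 to 270 FPKM in control libraries. Homer1 had 18.9, 16.5, 16.6 and 19.3 FPKM in knockdown libraries, against 23.5, 26.3, 21.3 and 18.9 FPKM in control libraries. Its groups overlapped and it did not pass (limma adjusted p = 0.273).

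Drosha (ENSMUSG00000022191.16, chr15:12824815-12935291, plus strand, GRCm38) had the highest level of the 10. It read 22.4, 21.5, 21.7 and 21.3 FPKM in knockdown libraries, against 21.6, 20.8, 20.7 and 21.3 FPKM in control libraries. The level was nearly flat, with 2 knockdown libraries above every control library and the other two within the control range. The means were 21.7 ± 0.494 FPKM in the knockdown group and 21.1 ± 0.414 FPKM in the control group (SD, n = 4 each). This log2 difference of 0.04 (95% interval -0.05 to 0.13) did not pass (limma adjusted p = 0.662, exact two-sided permutation p = 0.114). It was 0.02 under both rescalings and without knockdown library 1, and 0.06 from the summed transcripts.

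Both listed Drosha transcripts, Drosha-201 and Drosha-207, have 35 exons and the same count of 1373 codons in GENCODE M21, and 33 of the exons are identical. Their annotated starts lie 48 bases apart, their first exons end 4 bases apart and their last exons end 1 base apart. The stretch around the starts is printed because it holds most of what separates the annotated transcripts. It is the RefSeq promoter window (GRCm38.p6, chr15:12824565-12824864, plus strand, 250 bases before to 50 after the annotated start), and the capitals mark the 48 bases that belong to Drosha-207 and lie before the start of Drosha-201.

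Drosha promoter: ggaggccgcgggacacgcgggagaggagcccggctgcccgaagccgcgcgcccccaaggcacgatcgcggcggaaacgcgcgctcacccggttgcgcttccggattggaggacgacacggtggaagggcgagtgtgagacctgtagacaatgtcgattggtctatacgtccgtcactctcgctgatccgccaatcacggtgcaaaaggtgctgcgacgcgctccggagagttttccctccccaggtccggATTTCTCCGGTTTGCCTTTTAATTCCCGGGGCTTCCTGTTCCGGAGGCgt

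Drosha-201 carried nearly all of the gene's transcript FPKM, 93.4% to 99.5% in knockdown libraries and 93.5% to 99.7% in control libraries. It read 27.8, 27.7, 28.0 and 24.4 FPKM in knockdown libraries, against 28.0, 24.0, 24.1 and 25.4 FPKM in control libraries. Knockdown library 4 and control libraries 2, 3 and 4 were the low ones, so the groups overlapped. Drosha-207, named after its values were seen, read 0.980, 0.168, 0.147 and 1.73 FPKM in knockdown libraries, against 0.0812, 1.66, 1.65 and 1.33 FPKM in control libraries. It was lowest in libraries where Drosha-201 was high, in both groups, while the gene value stayed within 20.7 to 22.4 FPKM.

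Dgcr8 (ENSMUSG00000022718.11, chr16:18253948-18289249, minus strand) encodes the RNA-binding subunit of the Microprocessor, which grips the hairpin stem. It read 4.42, 5.24, 4.32 and 4.82 FPKM in knockdown libraries, against 4.51, 5.12, 4.26 and 4.21 FPKM in control libraries. The groups overlapped over nearly their whole range. The means were 4.70 ± 0.417 FPKM in the knockdown group and 4.53 ± 0.416 FPKM in the control group, a log2 difference of 0.05 (95% interval -0.12 to 0.21; limma adjusted p = 0.797, exact permutation p = 0.543). With 1 library left out it ran from 0.0013, without knockdown library 2, to 0.10, without control library 2, and it was 0.08 when corrected for GC content and length. The ratio of Drosha to Dgcr8 gene FPKM was 4.65 ± 0.473 in the knockdown group and 4.70 ± 0.433 in the control group, a gap smaller than either spread.

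The 2 listed Dgcr8 transcripts did not share that evenness. Dgcr8-202 was named after its values were seen. It read 0.0323, 3.18, 3.48 and 3.54 FPKM in knockdown libraries, against 3.0, 0.529, 0.630 and 0.687 FPKM in control libraries. Dgcr8-201 read 7.08, 5.26, 3.41 and 4.00 FPKM in knockdown libraries, against 4.25, 7.89, 6.17 and 6.05 FPKM in control libraries. In each group 1 library stood against the other 3: knockdown library 1, where Dgcr8-202 was nearly absent, and control library 1, where it was high. The share of Dgcr8-202 in the listed transcripts was 0.454%, 37.7%, 50.5% and 47.0% in knockdown libraries, against 41.4%, 6.28%, 9.27% and 10.2% in control libraries. The log2 difference of its balance against Dgcr8-201 was 0.87 (95% interval -0.90 to 2.63; limma adjusted p = 0.909). It was 1.55 without knockdown library 1, 1.33 without control library 1 and 0.55 without knockdown library 3, with limma adjusted p from 0.876 to 0.966 over the 8 fits that leave out 1 library. The summed transcripts moved far less than the parts, with 6.89 to 8.44 FPKM in knockdown libraries and 6.73 to 8.41 FPKM in control libraries. The 2 transcripts start within 3 bases and end within 9 bases of each other in the deposited coordinates.

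Xpo5 (ENSMUSG00000067150.5, chr17:46202855-46242299, plus strand), the export receptor that expressed hairpins share with precursor microRNAs, had the second highest level. It read 11.5, 12.0, 11.5 and 10.3 FPKM in knockdown libraries, against 11.8, 11.9, 12.5 and 11.9 FPKM in control libraries. Of the knockdown libraries, 3 lay below every control library, and knockdown library 2 lay among the controls. The means were 11.3 ± 0.751 FPKM in the knockdown group and 12.0 ± 0.305 FPKM in the control group. A log2 difference of -0.08 (95% interval -0.20 to 0.04) resulted, which did not pass (limma adjusted p = 0.508, exact permutation p = 0.114). Without knockdown library 4, the one with olfactory bulb markers and the lowest Xpo5 level, the log2 difference was -0.04, as it was when adjusted for striatal markers, and with library weights it was -0.05. The table lists 1 transcript for the gene, Xpo5-201, with the same values.

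Dicer1 (ENSMUSG00000041415.10, chr12:104687742-104751952, minus strand), the cytoplasmic nuclease that removes the hairpin loop, read 4.03, 3.75, 4.42 and 3.54 FPKM in knockdown libraries, against 4.25, 3.70, 4.23 and 3.97 FPKM in control libraries. The highest and the lowest library were both in the knockdown group. The log2 difference was -0.03 (95% interval -0.19 to 0.13; limma adjusted p = 0.854). Its sign turned without knockdown library 4 (0.0075), in the fit adjusted for striatal markers (0.03) and in the fit corrected for GC content and transcript length (0.05), and it was -0.09 from the summed transcripts. The gene value divides by 16750 bases of merged exons, while the main transcript Dicer1-201 has 9851 bases and 1906 codons. The gene value was therefore 0.431 to 0.532 times the sum of the listed transcripts.

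Dicer1-201 read 6.23, 5.77, 6.43 and 5.51 FPKM in knockdown libraries, against 6.57, 5.33, 6.67 and 5.84 FPKM in control libraries, with the knockdown libraries inside the control range. Dicer1-203, a short form of 1460 bases and 411 codons that shares 6 of its 9 exons exactly with Dicer1-201, read 1.36, 1.65, 3.83 and 1.15 FPKM in knockdown libraries, against 1.83, 3.11, 1.32 and 3.29 FPKM in control libraries. The short form was high in knockdown library 3 and in control libraries 2 and 4. It made up 17.2% to 37.3% of the listed Dicer1 FPKM in knockdown libraries and 16.5% to 36.9% in control libraries, and the balance did not differ past the threshold (limma adjusted p = 0.95).

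Tarbp2 (ENSMUSG00000023051.10, chr15:102518192-102523676, plus strand) encodes a double-stranded RNA-binding partner of Dicer that helps hand the duplex to Argonaute, and with Ago4 had the lowest levels of the 10, in overlapping ranges. It read 2.95, 2.66, 2.55 and 2.43 FPKM in knockdown libraries, against 1.94, 2.57, 2.24 and 2.64 FPKM in control libraries. In the knockdown group 2 libraries lay above every control library and the rest lay among them. The means were 2.65 ± 0.225 FPKM in the knockdown group and 2.35 ± 0.320 FPKM in the control group. The log2 difference of 0.13 was the highest of the 10 (95% interval -0.06 to 0.31; limma adjusted p = 0.497, exact permutation p = 0.229). It was 0.07 without control library 1, 0.06 when adjusted for striatal markers, 0.03 when corrected for GC content and length, and 0.24 from the sum of the listed transcripts only.

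Tarbp2-201, with 365 codons in M21, read 4.54, 1.02, 0.723 and 0.642 FPKM in knockdown libraries, against 0.694, 0.848, 0.502 and 2.93 FPKM in control libraries. Knockdown library 1 and control library 4 stood far above the other libraries of their groups, and those 3 and 3 overlapped. Tarbp2-209, a form of 225 codons that M21 names Tarbp2-208 under the same transcript ID, was named after its values were seen. It read 0.557, 1.11, 1.15 and 1.5 FPKM in knockdown libraries, against 1.24, 0.762, 1.07 and 0.581 FPKM in control libraries. This form was lowest where Tarbp2-201 was highest, in both groups. The gene value was 0.579 to 1.60 times the listed sum, and it varied less between libraries than either transcript did. A gene value formed as a length-weighted sum over merged exons cannot exceed the plain sum of the same transcripts. In libraries where the Tarbp2 gene value exceeded the listed sum, it thus held more than the listed forms, whose split does not cover the whole gene.

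Prkra (ENSMUSG00000002731.6, chr2:76629898-76648015, minus strand) encodes PACT, the other double-stranded RNA-binding partner of Dicer and an activator of the RNA-dependent kinase PKR. It read 4.47, 5.72, 5.05 and 6.16 FPKM in knockdown libraries, against 5.45, 5.03, 4.66 and 4.55 FPKM in control libraries. Knockdown library 1 was the lowest of all 8, and knockdown libraries 2 and 4 were above every control library. The log2 difference was 0.10 (95% interval -0.11 to 0.30; limma adjusted p = 0.643, exact permutation p = 0.343). It was 0.04 without knockdown library 4 and 0.17 without knockdown library 1. Prkra-201, its listed transcript of 313 codons, accounted for 95.1% to 98.6% of the gene value.

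**Figure D2:**
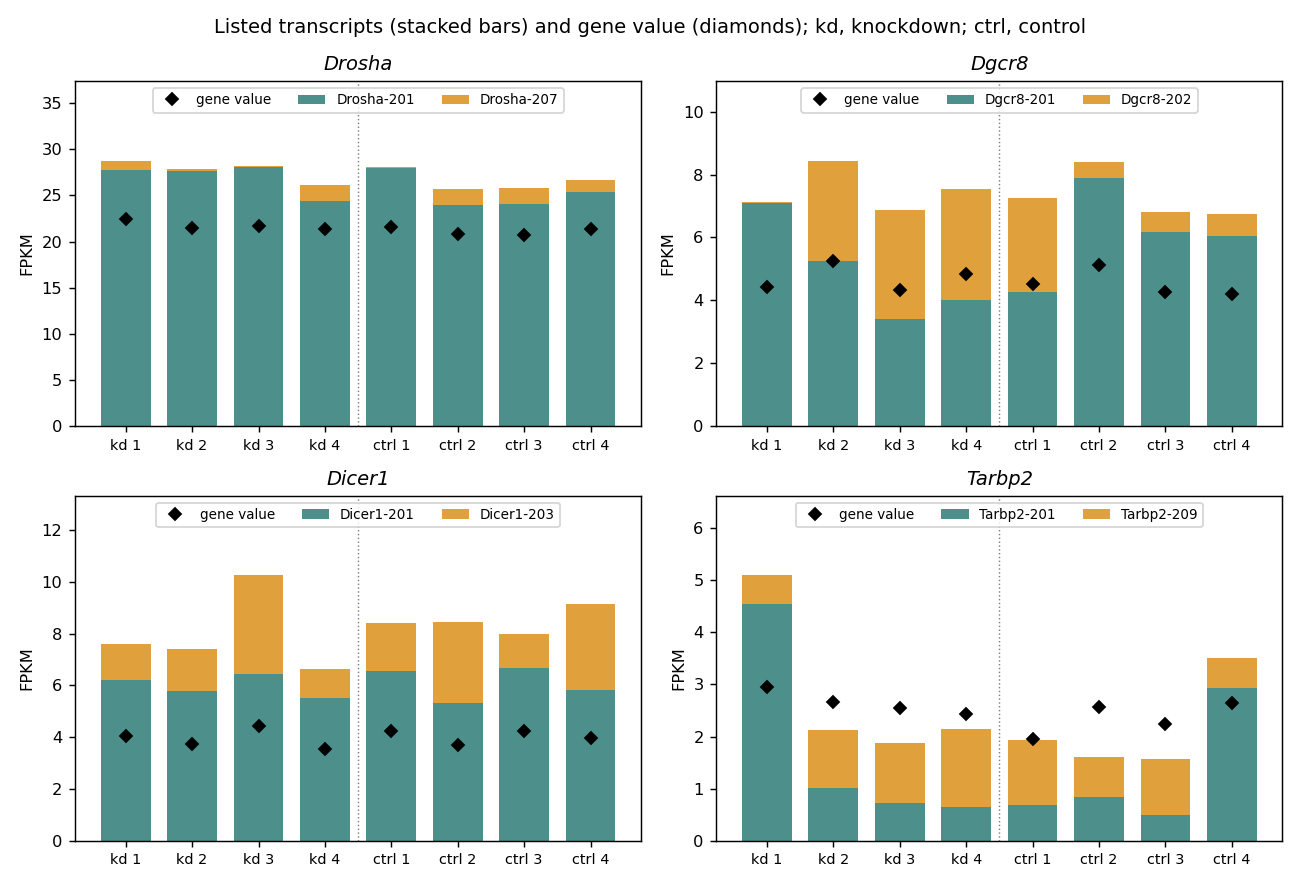
FPKM of the listed transcripts of Drosha, Dgcr8, Dicer1 and Tarbp2 in each library (stacked bars, linear axis from 0), with the gene value as a diamond, knockdown libraries left and control libraries right of the dotted line. The Dgcr8 and Tarbp2 bars change their split between libraries of 1 group, while the diamonds stay within 4.21 to 5.24 FPKM for Dgcr8 and 1.94 to 2.95 FPKM for Tarbp2.

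Among all transcripts, 6 of 23415 (0.0256%) passed the threshold, and of the 14 member transcripts 0 did. At an unadjusted p under 0.05 there was 1 member transcript, Ago3-201, against 1863 of all tested (7.96%). Apart from Ago3-201 the members' adjusted p ran from 0.727 to 0.960. The balance between transcripts of 1 gene, log2 of one transcript's FPKM plus 1 over that of the others plus 1, passed in 4 of 16241 cases (0.0246%) and reached an unadjusted p under 0.05 in 886 (5.46%). Of the 8 member balances 0 did either, with adjusted p from 0.909 to 0.990. Of the 14 member transcripts 2, Dgcr8-202 and Drosha-207, had a highest library at least 10 times the lowest, as had 14.3% of all tested transcripts. Transcript values were noisier than gene values in the whole table too. The median coefficient of variation was 21.8% in the knockdown group and 17.9% in the control group over transcripts, against 9.63% in the knockdown group and 7.57% in the control group over genes.

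Ago3 (ENSMUSG00000028842.15, chr4:126331704-126429556, minus strand), one of the Argonautes that bind microRNAs beside Ago2, read 5.44, 5.13, 5.81 and 5.03 FPKM in knockdown libraries, against 6.48, 6.26, 6.00 and 5.90 FPKM in control libraries. All 4 knockdown libraries lay below all 4 control libraries, the nearest being knockdown library 3 and control library 4. It was the only 1 of the 10 members whose groups did not overlap in either direction. Of all tested genes, 419 (3.22%) were separated in the direction of Ago3 and 771 (5.93%) in the other. The means were 5.35 ± 0.351 FPKM in the knockdown group and 6.16 ± 0.263 FPKM in the control group (SD, n = 4 each). The log2 difference was -0.17 ± 0.06 (SE; 95% interval -0.30 to -0.05), or 0.887 times on the FPKM + 1 scale. It did not pass over all genes (limma unadjusted p = 0.0130, adjusted p = 0.274), and 4.70% of tested genes had as small a p. The exact permutation p was 0.0286, the smallest that the 70 labelings of 4 of 8 libraries can give.

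The size of the Ago3 difference depended on the fit. It ran from -0.21 to -0.15 when 1 library was left out, and was -0.15 without knockdown library 4. It was -0.13 when adjusted for striatal markers and -0.06 when corrected per library for GC content and length, with a limma adjusted p of 0.665 in both fits, and in neither was the unadjusted p under 0.05. Ago3-201 has 15595 bases, the longest listed transcript among the members with an M21 match. The striatal score, the mean log2 deviation of the 12 markers, was -0.81, 0.04, 0.30 and -1.24 in knockdown libraries, against 1.05, 0.40, 0.90 and -0.64 in control libraries, and the part of tissue makeup in the Ago3 level was not tested beyond that adjusted fit. In bulk tissue, fewer cells of a type and less RNA per cell cannot be told apart.

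Ago3 has 1 listed transcript, Ago3-201, which encodes 860 codons and accounted for 99.1% to 99.8% of the gene value. It read 5.76, 5.42, 6.11 and 5.33 FPKM in knockdown libraries, against 6.85, 6.64, 6.37 and 6.24 FPKM in control libraries. These groups did not overlap either, as in 623 of all tested transcripts (2.66%) in that direction. On the log2 scale Ago3-201 differed by -0.18 (limma unadjusted p = 0.0334, adjusted p = 0.601). The Ago3 promoter window is printed because it is the start region of the 1 member that separated the groups (RefSeq, GRCm38.p6, chr4:126429493-126429792, minus strand, 250 bases before to 50 after the annotated start). The capitals mark the 5 matches of GGGCGG, the core letters of a GC box, on either strand.

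Ago3 promoter: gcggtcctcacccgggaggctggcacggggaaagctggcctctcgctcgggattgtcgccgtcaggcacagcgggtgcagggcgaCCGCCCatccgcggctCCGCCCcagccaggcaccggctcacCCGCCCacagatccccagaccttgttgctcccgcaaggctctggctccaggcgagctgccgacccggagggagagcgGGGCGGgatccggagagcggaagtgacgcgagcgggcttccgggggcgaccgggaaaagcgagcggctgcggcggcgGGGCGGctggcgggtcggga

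At least 1 match of GGGCGG or its reverse CCGCCC was present in 9 of the 10 RefSeq windows found for 9 members, and in 35.7% of 32851 promoter windows of the same length. Those windows were not limited to the genes tested here, and an enrichment was not tested. The window without one was that of Drosha. TATAAA or its reverse TTTATA was in 0 of the 10 member windows and in 13.6% of all windows. Ago1 had 2 windows, and Ago2 had none in the table used.

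Ago1 (ENSMUSG00000041530.16, chr4:126435012-126468583, minus strand) lies beside Ago3, and Ago4 (ENSMUSG00000042500.11, chr4:126489541-126533472, minus strand) beyond it. The run of Ago3, Ago1 and Ago4 spans 201.8 kb, with gaps of 5455 and 20957 bases and 0 other listed genes inside. Neither neighbour separated the groups as Ago3 did. Ago1 read 9.85, 10.1, 10.1 and 9.13 FPKM in knockdown libraries, against 9.65, 8.99, 9.85 and 9.91 FPKM in control libraries. The ranges overlapped, and the log2 difference was 0.02 (95% interval -0.09 to 0.14; limma adjusted p = 0.844), with its sign turned without control library 2 (-0.0039). It was 0.0073 under median-of-ratios rescaling and 0.06 when corrected for GC content and length.

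Ago4 read 2.46, 2.17, 2.49 and 2.60 FPKM in knockdown libraries, against 3.30, 2.51, 2.92 and 1.95 FPKM in control libraries. The knockdown libraries sat inside the wider control range. The log2 difference was -0.09 (95% interval -0.34 to 0.17; limma adjusted p = 0.735). It was -0.19 without control library 4, -0.0056 without control library 1, and 0.02 when adjusted for striatal markers.

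Ago2 (ENSMUSG00000036698.10, chr15:73095844-73184840, minus strand), the slicing Argonaute, read 8.73, 8.31, 8.65 and 8.72 FPKM in knockdown libraries, against 9.32, 8.72, 9.21 and 8.74 FPKM in control libraries. All 4 knockdown libraries were below the control mean and 2 were below every control library, so the groups overlapped at their edges. The means were 8.60 ± 0.200 FPKM in the knockdown group and 9.0 ± 0.314 FPKM in the control group. The log2 difference was -0.06 (95% interval -0.16 to 0.04; limma adjusted p = 0.560, exact permutation p = 0.114). Its sign turned when corrected for GC content and length (0.02).

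**Figure D3:**
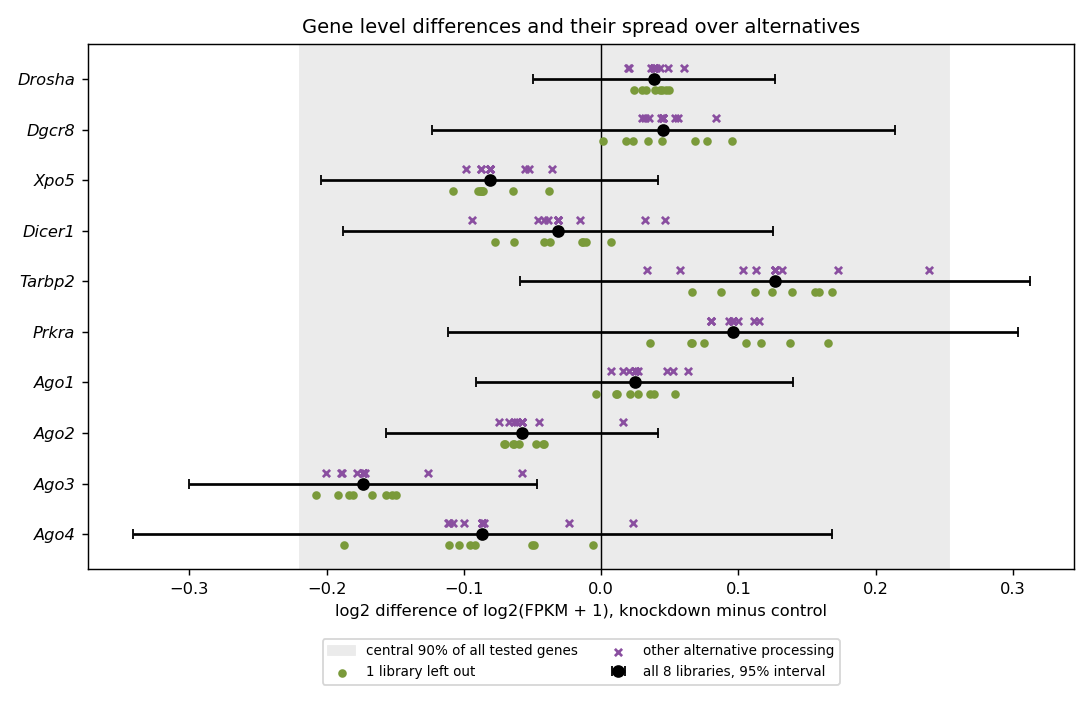
Log2 difference of each gene, knockdown minus control on the log2(FPKM + 1) scale, with all 8 libraries (black, 95% interval), with 1 library left out (green points) and under the other alternatives (purple crosses); the grey band is the central 90% of all tested genes (-0.22 to 0.25). All 10 black points lie inside the band, and only the Ago3 interval (-0.30 to -0.05) leaves out 0.

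The Argonautes were also read as a composition, the share of each in their summed gene FPKM. Ago3 made up 20.4 ± 0.789% in the knockdown group and 22.5 ± 0.905% in the control group (SD, n = 4 each). By library its share was 20.6%, 19.97%, 21.5% and 19.7% in knockdown libraries, against 22.5%, 23.6%, 21.5% and 22.3% in control libraries. The groups met at knockdown library 3 and control library 3, so on this scale they overlapped. Ago1 made up 37.4 ± 1.41% in the knockdown group and 35.0 ± 1.73% in the control group, and overlapped. Ago2 made up 32.9 ± 0.971% in the knockdown group and 32.8 ± 0.260% in the control group, and Ago4 9.29 ± 0.729% in the knockdown group and 9.70 ± 1.76% in the control group. The sign of the Ago2 and Ago4 share differences turned with 1 library left out. The summed Argonaute level was 26.2 ± 0.707 FPKM in the knockdown group and 27.4 ± 1.13 FPKM in the control group, overlapping. The ratio of Ago1 to Ago3, looked at after their values were seen, was 1.81, 1.97, 1.73 and 1.82 in knockdown libraries, against 1.49, 1.44, 1.64 and 1.68 in control libraries. The ratio of Ago2 to Ago3 was 1.60, 1.62, 1.49 and 1.73 in knockdown libraries, against 1.44, 1.39, 1.53 and 1.48 in control libraries, and overlapped. Both ratios are built on Ago3, already seen to separate the groups, and the share of gene ratios that separate was not computed. How reads shared between these paralogs were assigned is not given in the sources used here.

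**Figure D4:**
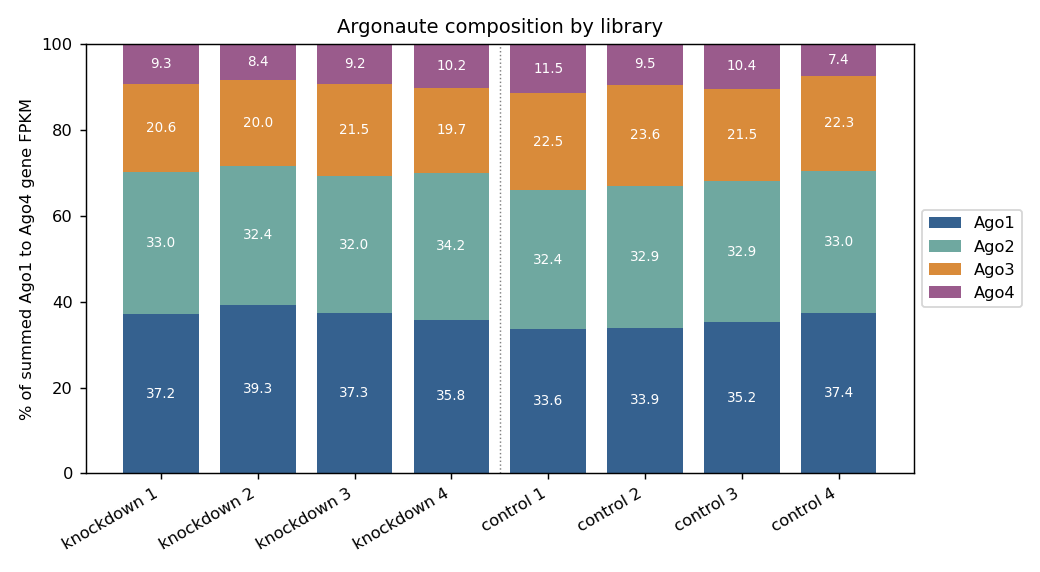
Share of Ago1, Ago2, Ago3 and Ago4 in their summed gene FPKM (percent) in each library, knockdown libraries left and control libraries right of the dotted line. The order Ago1, Ago2, Ago3, Ago4 is the same in all 8 libraries, and the Ago3 band is 19.7% to 21.5% in knockdown libraries and 21.5% to 23.6% in control libraries.

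By mean gene FPKM over all 8 libraries the order was Drosha (21.4), Xpo5 (11.7), Ago1 (9.69), Ago2 (8.80), Ago3 (5.76), Prkra (5.14), Dgcr8 (4.61), Dicer1 (3.98), Ago4 (2.55) and Tarbp2 (2.50). Library ranges of neighbours did not overlap between Drosha and Xpo5, Xpo5 and Ago1, Ago2 and Ago3, or Dicer1 and Ago4. The ranges of the other neighbours overlapped. Within libraries, Ago1 was still above Ago2 in 8 of 8, Prkra above Dgcr8 and Dgcr8 above Dicer1 in 7 of 8 each, Ago3 above Prkra in 6 of 8, and Ago4 above Tarbp2 in 3 of 8. The order depends on how a gene value is formed. By the sum of listed transcripts Dicer1 averaged 8.24 FPKM and Dgcr8 7.40 FPKM, both above the 6.09 FPKM of Ago3.

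Genes whose levels followed a member most closely over the 8 libraries were sought by the root-mean-square distance of centred log2 values. For Ago2 they were Ssb (distance 0.020), Pin4 (0.020) and Tnks2 (0.022), among 7173 genes with a median distance of 0.114. For Dicer1 they were Bclaf1 (0.025), Mfsd1 (0.027) and Pbrm1 (0.028), among 7174 genes with a median of 0.135. These distances describe 8 libraries that share scale and tissue makeup. Ago2 itself varied little, so a small distance also means a gene that stayed nearly flat.

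The cofactors around the core were read from 6 lists of 64 genes, of which 60 were tested. Lin28a, Zc3h12a, Dhx58 and Oas1a were not tested. Of the 60 genes 0 passed the threshold, and 7 (11.7%) had an unadjusted p under 0.05, 3 higher and 4 lower in the knockdown group, against 14.2% of all tested genes. Their median log2 difference was -0.01.

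Of the 8 Microprocessor cofactors 1 (12.5%) had an unadjusted p under 0.05, against 14.2% of all tested genes. Safb2, a nuclear scaffold-attachment protein, read 11.1, 9.99, 10.2 and 11.1 FPKM in knockdown libraries, against 8.89, 9.13, 8.62 and 8.96 FPKM in control libraries. All 4 knockdown libraries were above all 4 control libraries, as in 771 of all tested genes (5.93%), and the log2 difference was 0.23 (limma unadjusted p = 0.0015, adjusted p = 0.266). Erh, a small Microprocessor-associated protein, averaged 13.8 ± 0.400 FPKM in the knockdown group and 13.2 ± 0.405 FPKM in the control group (adjusted p = 0.540). The median over the list was -0.00099.

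Of the 4 nuclear export genes 1 had an unadjusted p under 0.05, against 14.2% of all tested genes, and the list's median was 0.06. Rangap1, which drives GTP hydrolysis by Ran on the cytoplasmic side, read 58.4, 72.9, 68.3 and 70.9 FPKM in knockdown libraries, against 63.6, 51.5, 52.7 and 61.1 FPKM in control libraries. Knockdown library 1 lay among the controls and the other 3 lay above them all, with a log2 difference of 0.24 (adjusted p = 0.316). Rcc1, the exchange factor that loads Ran with GTP, averaged 3.20 ± 0.201 FPKM in the knockdown group and 2.96 ± 0.204 FPKM in the control group (adjusted p = 0.531).

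Of the 12 Dicer partners and loading chaperones 1 (8.3%) had an unadjusted p under 0.05, against 14.2% of all tested genes, and the median was -0.02. Dnaja2, an Hsp70 co-chaperone of the system that opens Argonaute for its duplex, read 64.3, 64.9, 61.3 and 62.0 FPKM in knockdown libraries, against 71.1, 68.1, 65.9 and 69.8 FPKM in control libraries. The groups did not overlap, as for 3.22% of all tested genes in that direction, and the log2 difference was -0.12 (limma adjusted p = 0.298). Fkbp5, an Hsp90 co-chaperone, averaged 5.09 ± 0.429 FPKM in the knockdown group and 5.61 ± 0.203 FPKM in the control group (adjusted p = 0.400).

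Of the 18 silencing effectors 2 (11.1%) had an unadjusted p under 0.05, 1 in each direction, against 14.2% of all tested genes. The list's median was -0.03. Mov10, an RNA helicase that binds Argonautes, read 2.46, 2.23, 2.31 and 3.01 FPKM in knockdown libraries, against 1.67, 2.10, 2.11 and 1.61 FPKM in control libraries. Every knockdown library exceeded every control library, as for 5.93% of all tested genes, and the log2 difference was 0.28 (limma adjusted p = 0.277). Dcp2, the decapping enzyme, averaged 9.03 ± 0.854 FPKM in the knockdown group and 10.2 ± 0.545 FPKM in the control group, a log2 difference of -0.16 (adjusted p = 0.348).

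Of the 12 tested tailing and turnover genes 2 (16.7%) had an unadjusted p under 0.05, both lower. Over all tested genes the share was 14.2% in either direction and 5.07% in the lower direction. The list's median was -0.06. Eri1, an exonuclease that trims the ends of small RNA duplexes, averaged 1.74 ± 0.0996 FPKM in the knockdown group and 2.04 ± 0.217 FPKM in the control group (adjusted p = 0.348). Lin28b, which blocks maturation of the let-7 family, averaged 1.38 ± 0.0692 FPKM in the knockdown group and 1.63 ± 0.157 FPKM in the control group (adjusted p = 0.352). For both genes 3 knockdown libraries lay below every control library.

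Of the 6 tested double-stranded RNA sensors and their partners 0 had an unadjusted p under 0.05, against 14.2% of all tested genes, and the median was -0.0052. Tlr3, the endosomal sensor of double-stranded RNA, read 2.03, 1.06, 1.93 and 1.95 FPKM in knockdown libraries, against 2.24, 2.33, 1.90 and 2.0 FPKM in control libraries. Knockdown library 2 was low and the other 3 overlapped the controls (limma adjusted p = 0.485). Mavs, the mitochondrial adaptor of the RIG-I family, averaged 2.07 ± 0.273 FPKM in the knockdown group and 1.87 ± 0.124 FPKM in the control group (adjusted p = 0.584). Both groups carried a hairpin, so a response common to hairpins would not appear as a difference between them.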

How the data were processed

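Total RNA was made into 8 stranded libraries, 4 knockdown and 4 control, per the labels' protocols. The authors deposited a gene table and a transcript table in FPKM, per the file headers. The submitters' processing notes name cutadapt, FastQC, HISAT2 and StringTie without versions. No source used here gives the genome build or annotation. Of the gene IDs 87.5% matched GENCODE M21 (GRCm38) by ID and version, with identical coordinates in all 11493. Dgcr8, Xpo5, Ago2 and Tarbp2 did not match by gene ID, so their gene coordinates are the deposited ones, on the build that the matched genes share. Exon and codon counts are given for transcripts whose own ID and version matched. The deposited gene value equalled the transcript FPKM weighted by length over the merged exon length in 398 of 399 genes with 2 or more transcripts, all of them listed (tolerance 0.1%). Depth is unknown, and intervals or detection limits from counts could not be given.

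Rows averaging 0.5 FPKM or more in the 8 libraries were fitted as log2(FPKM + 1) with limma 3.58.1 in R 4.3.3 (trend and robust empirical Bayes, two-sided, no block), with Benjamini-Hochberg adjustment over 13004 genes, 23415 transcripts or 16241 isoform balances. Exact two-sided permutation tests used the 70 labelings. Alternatives covered the pseudocount, low-value filter, scaling, a replicate block, library weights, empirical Bayes settings, a striatal covariate, GC content and length, transcript sums and each library left out. The GC and length trend used the 98.2% of tested genes with both values.

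The members and gene lists were chosen with earlier results of these data known. Named were all 10 members, their highest transcript and the transcript with the smallest p at a mean of at least 1 FPKM, the 2 genes of each cofactor list with the smallest p at a mean of at least 1 FPKM, and the 3 genes nearest to Ago2 and to Dicer1 at a mean of at least 5 FPKM.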

Additional observations from a re-analysis of the deposited data

Results flagged for a closer look

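Within the groups of 4, a library was far from the other 3 in 9 of the 58 groups of values checked, by a gap past Dixon's 95% critical value. Chance marks about 1 in 20 groups, and the values below share libraries and genes. Xpo5 and its sole transcript Xpo5-201 both read 12.5 FPKM in control library 3, against 11.8 to 11.9 FPKM in the other controls. Drosha-201 read 24.4 FPKM in knockdown library 4, where the rest of its group read 27.7 to 28.0 FPKM. Dgcr8-202 read 0.0323 FPKM in knockdown library 1, where the rest of its group read 3.18 to 3.54 FPKM, and 3.0 FPKM in control library 1, against 0.529 to 0.687 FPKM in the other controls. Tarbp2-201 read 4.54 FPKM in knockdown library 1, where the rest of its group read 0.642 to 1.02 FPKM, and 2.93 FPKM in control library 4, against 0.502 to 0.848 FPKM in the other controls. Ago1-201 read 9.93 FPKM in control library 2, against 10.7 to 10.9 FPKM in the other controls. The Ago2 share of the summed Argonaute FPKM was 32.4% in control library 1, against 32.9% to 33.0% in the other controls.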

How the results depend on the processing

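Deviations of same-numbered libraries from their group means correlated at -0.185, -0.072, 0.200 and -0.017. Differently numbered libraries were not compared in this way, so whether the replicate numbers pair the libraries was not tested. With a replicate block 0 genes, 4 transcripts and 2 isoform balances passed, against 4 balances without it. With 1 library left out 0 to 2 genes, 9 to 22 transcripts and 9 to 22 balances passed; a gene passed without control library 1 or 2 or knockdown library 3 (1 each) or 4 (2), and transcripts and balances were most without knockdown library 3 (22 each). No member passed under any alternative, in limma adjusted over all genes. Genes at an unadjusted p under 0.05 numbered 1020 with the striatal covariate and 1199 without control library 1. Signs turned with the striatal covariate for Dicer1 (0.0318), Dicer1-201 (0.0502), Ago4 (0.0233), Ago4-201 (0.0266) and Tarbp2-201 (-0.287), and with GC content and length for Dicer1 (0.0468) and Ago2 (0.0162); the cause was not tested. With 1 library left out, signs also turned for Dicer1 (-0.0773 to 0.00751), Dicer1-201 (-0.0760 to 0.0166), Ago1 (-0.00386 to 0.0540), Ago1-201 (-0.0121 to 0.0454), Tarbp2-201 (-0.21 to 0.50) and the balances of Tarbp2-201 (-0.46 to 0.48) and Tarbp2-209 (-0.48 to 0.46). So did 2 share differences, in percentage points of the summed Argonaute FPKM: Ago2 was 0.0887 with all libraries, -0.356 without knockdown library 4 and -0.0406 without control library 1, and Ago4 was -0.411 with all libraries, 0.187 without control library 1 and -1.19 without control library 4. Unknown depth limits the low transcripts most.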
